A study of Mus musculus with 8 samples.

Results

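The 9 genes described here are TNF ligands and TNF receptors, 5 ligands (Tnf, Tnfsf9, Tnfsf12, Tnfsf13 and Tnfsf13b) and 4 receptors (Tnfrsf1a, Tnfrsf1b, Tnfrsf21 and Tnfrsf11a), of 23413 gene symbols with a count in the series table. They were listed by name, and all 9 were in the table and were tested in every comparison. RNA was sequenced from tumor-associated macrophages (TAMs) of 8 male C57BL/6 mice aged 8 to 10 weeks, each of which bore a subcutaneous tumor of B16F10, a mouse melanoma line. Doses were given 6 and 12 days after tumor cells were injected, and on day 18 TAMs were sorted as CD45+F4/80+CD11b+Gr-1- cells, 1 library per mouse. The vehicle, DMSO, was given to 2 mice, thiostrepton, a thiopeptide antibiotic, was given by intraperitoneal injection (I.P.) to 4 mice, and by injection under the skin beside the tumor (S.C., called IS in the labels) to 2 mice at 20 mg/kg. The I.P. dose of these 4 mice and the route of the 2 DMSO mice are not given in the sources used here. Every I.P. dose that the study names is above the S.C. dose, so the route and the dose cannot be told apart between these groups. All mice carried the same tumor line and no engineered allele is named for any of them.

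TNF ligands are made as membrane proteins that act as trimers, and many are cut from the cell surface to act at a distance. Their receptors pass the signal through adaptor proteins, the TRAFs and death domain proteins, to NF-κB and MAP kinases or to cell death. Activated macrophages are a main source of TNF, which is both made and answered by the same cells. Thiostrepton was studied as a compound that turns TAMs toward a proinflammatory state, and Tnf had been named by the study from these same samples, so its direction here is not independent evidence.

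The gene counts of a mouse totalled 14127506 to 17577466, and 3 counts, taken as the floor, correspond to 0.169 to 0.218 CPM (counts scaled to a common library size), a limit that covers counting error only. The scaling is edgeR's TMM method. All 10 macrophage markers, among them Csf1r, Cd68 and C1qa, had counts in all 8 mice and summed to 12000 to 14900 CPM in DMSO, 14000 to 19600 CPM in I.P. and 16300 to 17000 CPM in S.C. mice. Markers of other cells differed between groups. The 10 neutrophil markers in the table summed to 125 to 135 CPM in DMSO, 84.4 to 162 CPM in I.P. and 231 to 407 CPM in S.C. mice, although the sort takes Gr-1- cells. Among them Cxcr2 was at 171 and 65.3 CPM in S.C. mice 1 and 2, and S100a8 at 6.46 and 64.7 CPM. The 14 lymphocyte markers summed to 19.6 to 44.4, 14.4 to 40.6 and 59.6 to 71.6 CPM. The 5 monocyte markers summed to 73.1 to 111, 20.3 to 317 and 116 to 198 CPM and the 6 dendritic cell markers to 1.95 to 7.8, 2.37 to 6.88 and 9.46 to 30.6 CPM. Single markers did not all follow these sums. Of the monocyte markers, Chi3l3 alone was at 290 CPM in I.P. mouse 1, where the sum was 317 CPM. Ccr2 was at 7.3 to 20.1 CPM in the I.P. mice against 59.9 and 79.2 CPM in the DMSO mice. The 6 melanocyte markers summed to 595 to 664, 459 to 1660 and 697 to 2960 CPM, highest in S.C. mouse 1, and the 5 stromal markers to 7.72 CPM at most. Of 9328 genes averaging 5 CPM or more over the mice, 0.525% and 0.364% were without a count in the S.C. mice against 0.0107% to 0.129% in the others. The part of these differences in the results for the 9 genes was not tested, and in bulk RNA more cells of a type and more RNA per cell cannot be told apart.

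A gene is said to be called higher or lower where edgeR's quasi-likelihood test gave an unadjusted P under 0.05 with 2-fold or more between the groups, the criterion of the study. In I.P. against DMSO mice 1 of the 9 genes was called higher and 0 lower, where 1.53% and 0.468% of the 12174 genes tested were called. In S.C. against DMSO mice 3 were called higher and 0 lower, where 2.29% and 2.77% of 11680 genes were. Between the routes (S.C. against I.P.) 0 were called, where 2.41% of 12206 genes were called higher and 4.64% lower. With edgeR P values adjusted by Benjamini-Hochberg across the whole table, 0 of the 9 genes passed an adjusted p of 0.05 in any of these comparisons, and 0% of all genes did, while 418, 632 and 1049 genes had an unadjusted P under 0.05. Other tests gave more, 10, 179 and 265 genes by edgeR's likelihood ratio test and 19, 107 and 234 by DESeq2. Both thiostrepton comparisons use the same 2 DMSO mice. With 4 mice against 2 the smallest p of an exact two-sided permutation test of 1 gene is 0.133, and with 2 against 2 it is 0.333.

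**Figure D1:**
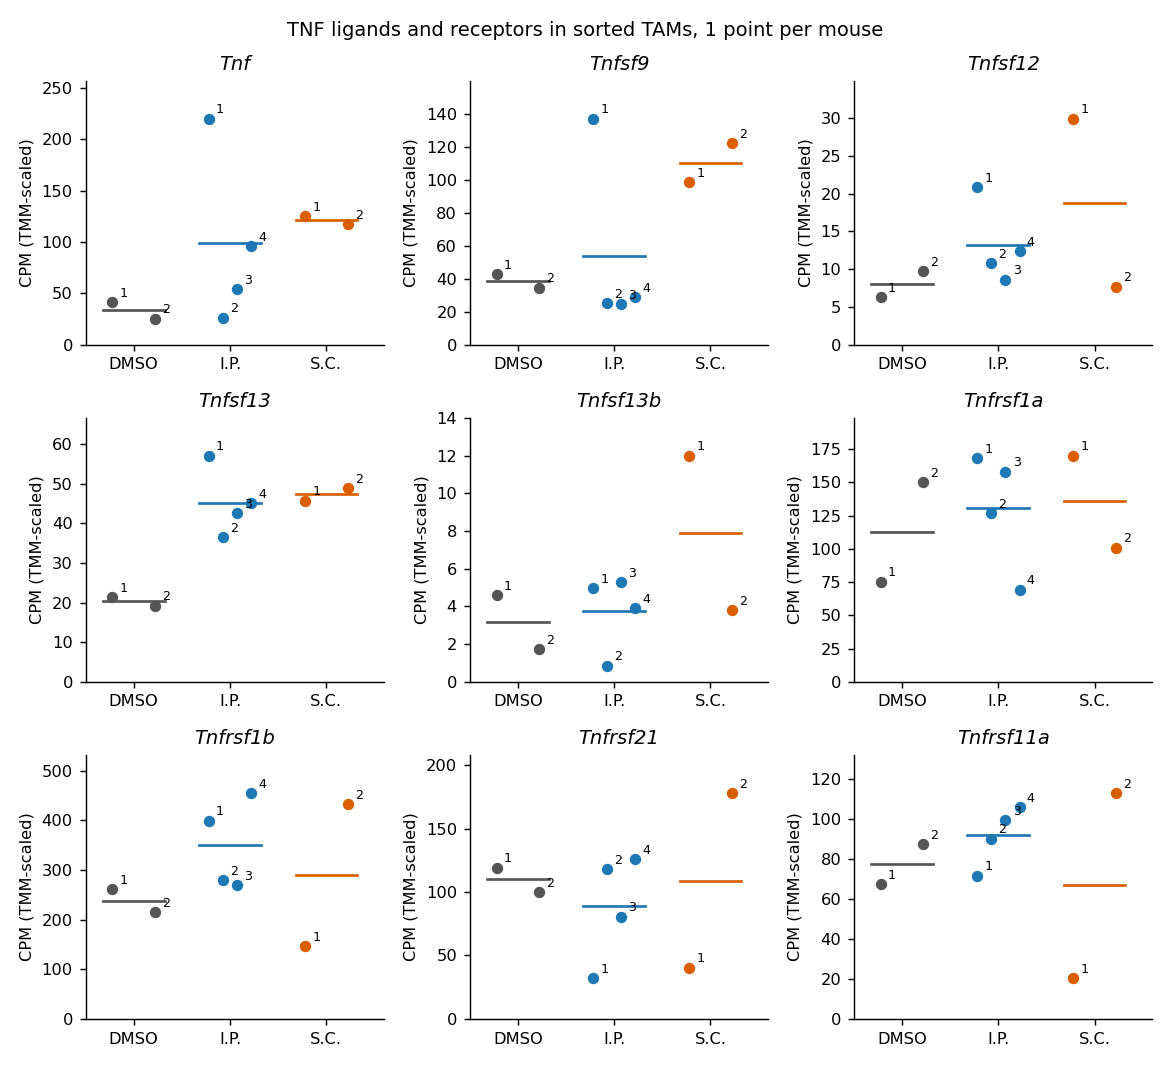
TMM-scaled CPM of each of the 9 genes in each mouse, 1 panel per gene with its own linear axis from 0, 1 point per mouse with its number and a bar at the group mean. For Tnfsf13 all 6 treated mice, at 36.5 to 57.1 CPM, sit above both DMSO mice at 19.2 and 21.4 CPM, while Tnfrsf11a and Tnfrsf21 are split between the 2 S.C. mice.

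Tnf, which encodes the cytokine TNF, lies on the minus strand of chromosome 17 from 35199381 to 35202007 (GRCm38) and has 4 exons. The 250 bases before its RefSeq start site are shown because Tnf was called in S.C. mice and the window holds the core letters of a TATA box. They lie at chr17:35202008-35202257 on GRCm38.p6, minus strand, with the TATA match, TATAAA, at bases 29 to 24 upstream in capitals.
Tnf, 250 bases upstream: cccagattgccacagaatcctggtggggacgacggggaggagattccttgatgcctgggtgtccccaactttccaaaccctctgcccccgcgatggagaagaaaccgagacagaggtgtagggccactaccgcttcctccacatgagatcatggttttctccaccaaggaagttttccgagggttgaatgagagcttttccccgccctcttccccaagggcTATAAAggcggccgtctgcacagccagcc
Promoters of 27025 RefSeq start sites, the first listed of each gene symbol, were searched on both strands, and 13.0% held TATAAA in this window. For the genes described here every listed start site was searched. The AP-1 letters TGANTCA were in 6.87% of the windows and not in that of Tnf. A strict NF-κB consensus (GGG, a purine, any pair of bases, a pair of pyrimidines, CC) was in 7.01% of the windows and in that of none of the 7 genes with an entry, the 9 without Tnfsf9 and Tnfsf12. NF-κB sites further upstream, or with other letters, were not searched for. The AP-1 letters were present before the RefSeq start of Tnfsf13, at bases 133 to 127 upstream. They were also before the last listed RefSeq start site of Tnfsf13b, which is left out of the shares above, at bases 127 to 121. These start sites lie inside the genes as GENCODE bounds them, so both matches fall within the annotated genes.

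Tnf was measured at 41.1 and 25.4 CPM in the DMSO mice, at 220, 26.3, 54.0 and 96.1 CPM in I.P. mice 1 to 4, and at 125 and 117 CPM in the S.C. mice. Both S.C. mice were above both DMSO mice and differed from each other by 1.07-fold, although they were the least alike pair over all genes compared (r 0.767). Of the I.P. mice 3 were above both DMSO mice, while I.P. mouse 2 lay between them. In S.C. against DMSO mice Tnf was called higher, at 121 ± 5.73 (SD, n = 2) against 33.3 ± 11.1 CPM (SD, n = 2), a log2 fold change of 1.84 (standard error 0.37, 95% interval 0.92 to 2.76), or 3.58-fold. Its edgeR adjusted p was 0.747, and over the alternatives with all mice it ran from 0.00406 (DESeq2) to 0.744. In I.P. against DMSO mice the value for Tnf was 1.56 (standard error 0.75 on the log2 scale, 95% interval -0.14 to 3.26) with an unadjusted P of 0.0669 by edgeR's quasi-likelihood test, which missed the criterion. It was met by edgeR's likelihood ratio test (1.56), by DESeq2 (1.57), with no gene filter (1.55) and without I.P. mouse 2 (1.89), and without I.P. mouse 1 the log2 fold change was 0.82. Between S.C. and I.P. mice the log2 fold change of Tnf was 0.29 with a 95% interval of -1.28 to 1.87, so a difference of over 2-fold in either direction lies within it. The range among the I.P. mice, 8.36-fold, was the widest of the 9 genes in that group.

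Tnfsf9 encodes CD137 ligand, which costimulates T cells through the receptor CD137 (Tnfrsf9), and lies on the plus strand of chromosome 17 from 57105325 to 57107757. It was at 42.7 and 34.5 CPM in the DMSO mice, at 137, 25.0, 24.4 and 28.8 CPM in I.P. mice 1 to 4, and at 98.4 and 122 CPM in the S.C. mice. The treated mice fell on both sides of the DMSO mice, with I.P. mouse 1 and both S.C. mice above them and I.P. mice 2, 3 and 4 below them. Tnfsf9 was called higher in S.C. against DMSO mice, by 1.49 on the log2 scale (standard error 0.33, 95% interval 0.66 to 2.31), or 2.8-fold. Its edgeR adjusted p was 0.747, and over the alternatives with all mice it ran from 0.0240 (DESeq2) to 0.858. The call was lost with all 3 groups in 1 fit (log2 fold change 1.51, unadjusted P 0.0894) and without DMSO mouse 2 (1.33, unadjusted P 0.0800). In I.P. against DMSO mice the log2 fold change was 0.46 (standard error 0.71), and -0.56 without I.P. mouse 1. In S.C. against I.P. mice it was 1.04 (standard error 0.70), and without I.P. mouse 1 it was 2.08 with an unadjusted P of 8.552e-05, a call. Its receptor Tnfrsf9 was at 7.96 ± 1.6 (SD, n = 2), 10.1 ± 3.47 (SD, n = 4) and 14.5 ± 11.5 CPM (SD, n = 2) in DMSO, I.P. and S.C. mice and was not called in either comparison with DMSO. The noncoding gene Gm11110 on the other strand shares 192 bases of the Tnfsf9 exons, 14.9% of them, and had 411 counts over the 8 mice.

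Tnfsf13 encodes APRIL, a ligand that sustains plasma cells through the receptors TACI (Tnfrsf13b) and BCMA (Tnfrsf17), and lies on the minus strand of chromosome 11 from 69682846 to 69685784. It had 21.4 and 19.2 CPM in the DMSO mice, 57.1, 36.5, 42.6 and 45.1 CPM in I.P. mice 1 to 4 and 45.8 and 48.9 CPM in the S.C. mice. It was the only one of the 9 genes for which all 6 treated mice lay above both DMSO mice, a pattern shown by 2.93% of 12378 genes. Tnfsf13 was called higher by both routes. The I.P. mice were at 45.3 ± 8.64 CPM (SD, n = 4) against 20.3 ± 1.6 CPM (SD, n = 2) in DMSO mice, a log2 fold change of 1.15 (standard error 0.27, 95% interval 0.55 to 1.76), or 2.22-fold, with an edgeR adjusted p of 0.980, which ran from 0.0475 (DESeq2) to 1.0 over the alternatives with all mice. This call held without any 1 of the 6 mice, at log2 fold changes between 1.03 and 1.25. The S.C. mice were at 47.4 ± 2.2 CPM (SD, n = 2), a log2 fold change of 1.20 (standard error 0.36, 95% interval 0.31 to 2.08), or 2.29-fold, with an edgeR adjusted p of 0.747. That call was lost without either DMSO mouse, at unadjusted P of 0.151 without mouse 1 and 0.196 without mouse 2, and the log2 fold change was then 1.27 and 1.11. The log2 fold change between the routes was 0.06 with a 95% interval of -0.59 to 0.72, less than 2-fold in either direction.

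Tnfsf13 counts are less certain than its replicate spread shows, because the genes for APRIL and TWEAK are neighbours in the annotation and share transcripts. A read-through gene, Tnfsfm13, on the same strand covers 983 bases (60.0%) of the Tnfsf13 exons and 731 bases (48.3%) of the Tnfsf12 exons and had no row of its own among the counts, and the antisense gene Tnfsf13os covers 221 bases (13.5%) of the Tnfsf13 exons. How the counting divided such reads, and whether it used the strand, is not given in the sources used here. Tnfsf12 itself, which encodes TWEAK, lies on the minus strand of chromosome 11 from 69686250 to 69695849. It was at 6.31 and 9.70 CPM in DMSO mice, 20.8, 10.8, 8.58 and 12.4 CPM in I.P. mice 1 to 4 and 29.9 and 7.64 CPM in the S.C. mice. The S.C. mice lay on either side of DMSO mouse 2, and the log2 fold changes, 0.70 (standard error 0.41) in I.P. mice and 1.20 (standard error 0.77) in S.C. mice, missed the criterion. With S.C. mouse 1 left out the S.C. value was -0.10. Its receptor Fn14 (Tnfrsf12a) was at 10.7 and 14.5 CPM in DMSO mice, 52.2, 16.5, 20.7 and 19.4 CPM in I.P. mice and 33.2 and 24.2 CPM in S.C. mice, so all treated mice were above both DMSO mice. Tnfrsf12a was called higher in S.C. mice, by 1.16 on the log2 scale (standard error 0.45, adjusted p 0.902 by edgeR), and not in I.P. mice, at 1.10 with an unadjusted P of 0.0552 by edgeR. The S.C. call of Tnfrsf12a was lost with library size only, with all 3 groups in 1 fit, and with either block by mouse number. It was also lost without either DMSO mouse or S.C. mouse 1.

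Tnfsf13b, which encodes BAFF, a survival factor of B cells, lies on the plus strand of chromosome 8 from 10006467 to 10039072. It was the lowest of the 9 genes, with 68 and 30 counts in the DMSO mice, 78, 14, 94 and 67 counts in the I.P. mice and 179 and 52 counts in the S.C. mice. These are 4.61 and 1.72 CPM, 4.97, 0.851, 5.30 and 3.91 CPM, and 12 and 3.79 CPM. The groups overlapped in every comparison. The log2 fold changes were 0.24 (standard error 0.74) by I.P. and 1.29 (standard error 0.95) by S.C., and the latter was 0.24 without S.C. mouse 1. Of the receptors that BAFF and APRIL use, TACI (Tnfrsf13b) was at 7.04 ± 0.695 (SD, n = 2), 5.48 ± 1.29 (SD, n = 4) and 5.98 ± 2.38 CPM (SD, n = 2) in DMSO, I.P. and S.C. mice. The BAFF receptor (Tnfrsf13c) had 1 to 10 counts per mouse. BCMA (Tnfrsf17) had 9 counts in DMSO mouse 2, 4 in I.P. mouse 2 and 0 in the other 6 mice.

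**Figure D2:**
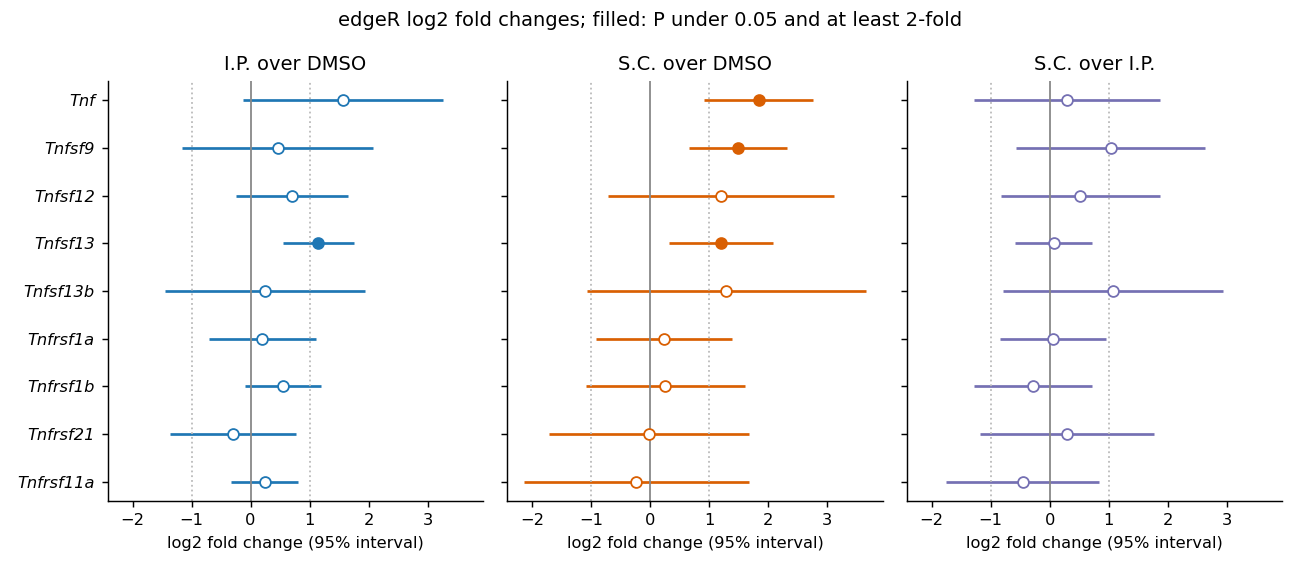
Log2 fold change (x axis) of each of the 9 genes (rows) in each comparison from edgeR, with 95% intervals as lines; filled points meet the criterion of an unadjusted P under 0.05 and 2-fold. Filled points are Tnfsf13 in I.P. against DMSO mice and Tnf, Tnfsf9 and Tnfsf13 in S.C. against DMSO mice, and all 4 are ligands.

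Taking the ligands as a group, all 5 had a positive log2 fold change by each route under every scaling tried, with medians of 0.704 (I.P.) and 1.292 (S.C.), where the median of all genes tested was 0.018 in both. The sign turned for Tnfsf13b by I.P. with the block by mouse number (-0.43) and without DMSO mouse 2 (-0.30), for Tnfsf9 by I.P. without I.P. mouse 1 (-0.56) and for Tnfsf12 by S.C. without S.C. mouse 1 (-0.10). By S.C. all 5 ligands reached 2-fold, where 17.9% of all genes did in either direction, and 3 of them met the criterion. By I.P. 2 did, where 7.67% of all genes did, and 1 met the criterion. Of the 9 genes, 2 lay entirely above the DMSO mice by I.P. (Tnfsf13 and Tnfrsf1b) and 3 by S.C. (Tnf, Tnfsf9 and Tnfsf13), where 7.31% and 17.1% of all genes tested did. None lay entirely below, where 6.83% and 17.2% did. Between the routes 0 of the 9 genes separated in either direction, where 8.05% of all genes lay entirely above and 10.5% entirely below in S.C. mice.

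The 4 receptors showed no call in the comparisons of all mice, with median log2 fold changes of 0.223 by I.P. and 0.106 by S.C. against DMSO mice. Tnfrsf1b encodes TNFR2, the TNF receptor without a death domain that is found mainly on immune cells, and lies on the minus strand of chromosome 4 from 145213463 to 145246870. It was at 261 and 215 CPM in the DMSO mice, at 399, 279, 269 and 455 CPM in I.P. mice 1 to 4 and at 146 and 432 CPM in the S.C. mice. All 4 I.P. mice were above both DMSO mice, while the S.C. mice lay on opposite sides of them. The I.P. log2 fold change was 0.55 (standard error 0.28, 95% interval -0.10 to 1.20) with an unadjusted P of 0.0858 by edgeR, and an exact permutation test gave p = 0.133 (4 against 2 mice), the smallest possible. The S.C. value was 0.26 (standard error 0.54).

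Tnfrsf1a, which encodes TNFR1, the widely expressed death domain receptor of TNF, lies on the plus strand of chromosome 6 from 125349362 to 125362484. It was at 75.4 and 150 CPM in the DMSO mice, 168, 127, 158 and 69.2 CPM in I.P. mice 1 to 4 and 170 and 101 CPM in the S.C. mice. Its groups overlapped in every comparison. The log2 fold changes were 0.20 (95% interval -0.71 to 1.12) by I.P. and 0.24 (95% interval -0.92 to 1.39) by S.C., and the DMSO mice alone differed by 1.99-fold. Lymphotoxin alpha (Lta), another ligand of TNFR1 and TNFR2, had 0 to 2 counts per mouse, under the floor.

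The other receptors, RANK and DR6, split the S.C. mice. Tnfrsf11a encodes RANK, the receptor through which RANK ligand drives osteoclast formation, and lies on the plus strand of chromosome 1 from 105780718 to 105847981. It was at 67.4 and 87.4 CPM in the DMSO mice, 71.7, 90.2, 99.5 and 106 CPM in I.P. mice 1 to 4 and 20.5 and 113 CPM in the S.C. mice. RANK ligand (Tnfsf11) had 3 counts in DMSO mouse 1 and 0 in the other 7 mice. Tnfrsf21, which encodes DR6, a death domain receptor, lies on the plus strand of chromosome 17 from 43016555 to 43089189. It was at 119 and 99.7 CPM in the DMSO mice, 32.1, 118, 80.4 and 126 CPM in I.P. mice 1 to 4, and 40.5 and 178 CPM in the S.C. mice. I.P. mouse 1 and S.C. mouse 1 were the lowest of the 8 mice for Tnfrsf21, and S.C. mouse 2 was the highest for both genes. The log2 fold changes of Tnfrsf11a were 0.24 (95% interval -0.33 to 0.81) by I.P. and -0.23 (95% interval -2.13 to 1.67) by S.C., and those of Tnfrsf21 were -0.30 (95% interval -1.37 to 0.77) and -0.02 (95% interval -1.72 to 1.67).

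Leaving out S.C. mouse 2, so that S.C. mouse 1 stands alone and is taken to vary like the DMSO mice, gave 7 calls among the 9 genes in place of 3, in a fit that called 27.8% of all 12349 genes against 5.06% with all mice. All 5 ligands were then called higher, Tnfsf12 at a log2 fold change of 1.84 and Tnfsf13b at 1.88, and Tnfrsf21 (-1.49) and Tnfrsf11a (-1.98) were called lower. With S.C. mouse 2 alone, where 24.5% of all 12210 genes were called, Tnf, Tnfsf9 and Tnfsf13 were called higher, and Tnfrsf21 and Tnfrsf11a were at 0.67 and 0.52. Tnfrsf21 and Tnfrsf11a thus had opposite signs with the 2 S.C. mice taken singly. Without DMSO mouse 2 a single call, Tnf, was left, where 0.92% of all genes were called. Macrophage markers differed between the S.C. mice in both directions. Of the 10, Csf1r, Emr1, Itgam, Ptprc and Mertk were lower in S.C. mouse 1 and Cd68, Fcgr1, C1qa, C1qb and C1qc were higher. Csf1r, Emr1 and Itgam were at 353, 360 and 103 CPM in S.C. mouse 1 against 1130, 1020 and 384 CPM in S.C. mouse 2, with 767 and 732, 914 and 594, and 198 and 254 CPM in the DMSO mice, and I.P. mouse 1 was at 505, 318 and 178 CPM. C1qa and C1qb were at 1650 and 6800 CPM in S.C. mouse 1 against 1340 and 5320 CPM in S.C. mouse 2. The melanocyte markers summed to 2960 and 697 CPM in S.C. mice 1 and 2 and the neutrophil markers to 231 and 407 CPM. Their part in the difference between the S.C. mice was not tested.

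**Figure D3:**
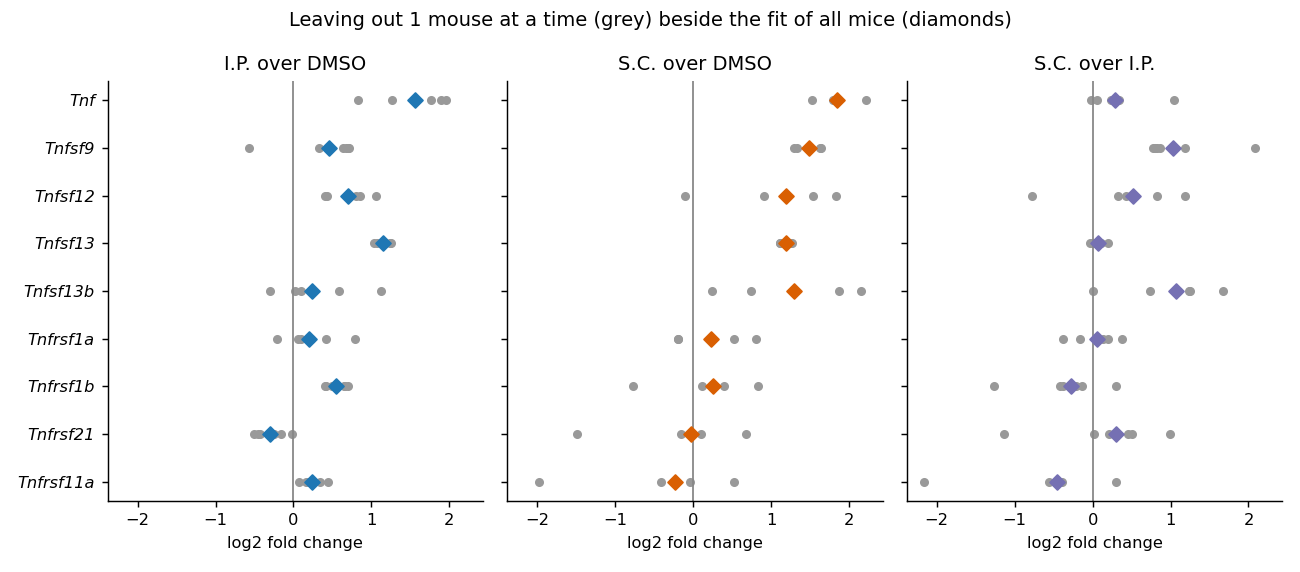
Log2 fold change (x axis) of each of the 9 genes (rows) with all mice (diamonds) and with each mouse left out in turn (grey points), 1 panel per comparison. Tnfsf13 stays between 1.03 and 1.25 in I.P. against DMSO mice, and Tnfrsf11a runs from -1.98 to 0.52 in S.C. against DMSO mice.

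The difference between 2 mice of a group varied from gene to gene. In DMSO mice 1 of the 9 genes, Tnfsf13b, had a range of at least 2-fold, where 5.36% of the 9328 genes averaging 5 CPM or more did. In I.P. mice 6 of the 9 did, where 36.9% did, and in S.C. mice 5 did, where 33.3% did. Tnfsf13b averaged under 5 CPM, so it is not among the 9328 genes. It is counted among the 9 in every group, at 2.56-fold in DMSO, 5.56-fold in I.P. and 3.11-fold in S.C. mice. A range over 4 mice is wider than one over 2 by construction, so the I.P. figure is not comparable with the others. Of the 4 receptors, 3 had such a range in S.C. mice, 5.49-fold for Tnfrsf11a, 4.39-fold for Tnfrsf21 and 2.96-fold for Tnfrsf1b. The ligands Tnf and Tnfsf13 differed by 1.07-fold and Tnfsf9 by 1.24-fold between the same 2 mice (1.61-fold, 1.12-fold and 1.24-fold for Tnf, Tnfsf13 and Tnfsf9 between the DMSO mice), and Tnfsf12 and Tnfsf13b by 3.87-fold and 3.11-fold.

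Levels were compared between genes as CPM per kb of exon. In DMSO mice the order of these length-corrected levels was Tnfrsf1b (62.4 ± 8.48), Tnfrsf1a (43.5 ± 20.4), Tnfsf9 (29.9 ± 4.51), Tnfrsf21 (26.6 ± 3.38), Tnf (20.3 ± 6.76), Tnfrsf11a (12.9 ± 2.36), Tnfsf13 (12.4 ± 0.975), Tnfsf12 (5.28 ± 1.58) and Tnfsf13b (0.461 ± 0.298), each in CPM per kb with SD and n = 2. Neighbours in this order overlapped between mice from Tnfrsf1b to Tnf and for Tnfrsf11a and Tnfsf13, while the steps from Tnf to Tnfrsf11a, from Tnfsf13 to Tnfsf12 and from Tnfsf12 to Tnfsf13b did not overlap. In S.C. mice the first 3 were Tnfsf9 (85.3 ± 12.8), Tnfrsf1b (75.6 ± 52.9) and Tnf (74.0 ± 3.5), which overlapped, followed by Tnfrsf1a (52.3 ± 18.9), in the same unit and n. In I.P. mice Tnfrsf1b led with 91.8 ± 24 CPM per kb (SD, n = 4), and Tnf was at 60.5 ± 52.3 CPM per kb (SD, n = 4). The length-corrected level of Tnf relative to Tnfrsf1b was 0.367 and 0.275 in the DMSO mice, 1.29, 0.219, 0.469 and 0.492 in I.P. mice 1 to 4, and 2.0 and 0.633 in the S.C. mice. Both S.C. mice and 3 of the 4 I.P. mice were thus above the DMSO mice in this ratio, and in I.P. mouse 1 and S.C. mouse 1 Tnf exceeded Tnfrsf1b per length. Between S.C. mice 1 and 2, Tnfrsf1b was at 146 and 432 CPM and Tnf at 125 and 117 CPM. How often other gene pairs separate in this way was not examined. Relative to Tnfrsf1a the length-corrected level of Tnf was 0.862 and 0.268 in the DMSO mice, 2.07, 0.327, 0.541 and 2.2 in I.P. mice 1 to 4, and 1.16 and 1.84 in S.C. mice 1 and 2. By this ratio both S.C. mice lay above the DMSO mice, as did 2 of the 4 given I.P. doses.

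**Figure D4:**
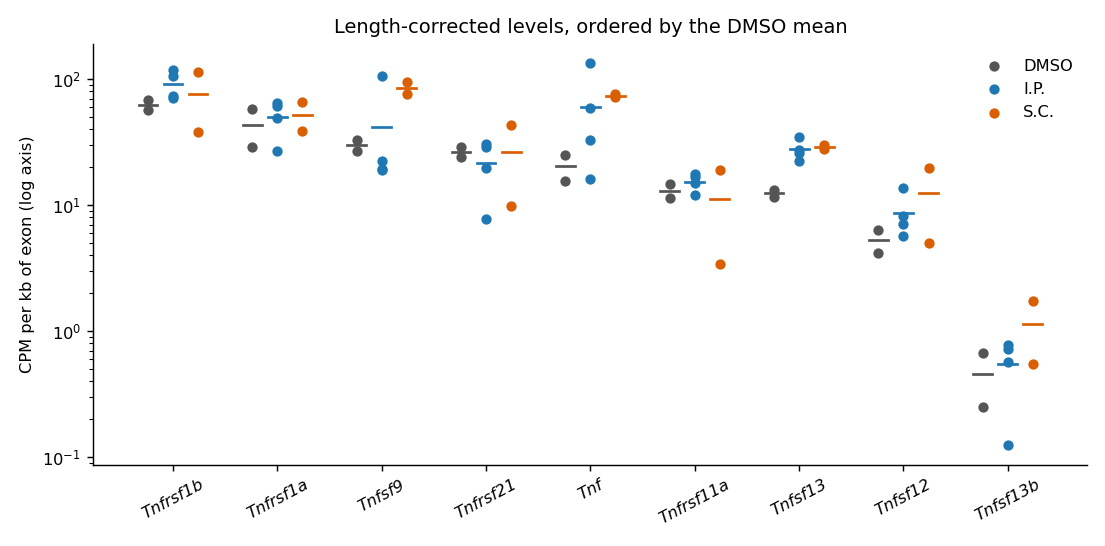
CPM per kb of exon (log axis) of the 9 genes, ordered by the DMSO mean, 1 point per mouse and a bar at each group mean. Tnfrsf1b and Tnfrsf1a lead in DMSO mice at means of 62.4 and 43.5 CPM per kb, and Tnfsf13b is the lowest in every group.

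Outside the 9 genes, the rest of the TNF superfamily had few calls. Of 13 other ligands 7, and of 24 other receptors 8, were too low to be tested in any comparison, with at most 14 and 10 counts in any mouse. In I.P. against DMSO mice 0 of 5 other ligands, 0 of 14 other receptors, 0 of 27 receptor-proximal signalling genes and 0 of 15 genes for shedding, processing and mRNA control were called, and 0 of these had an unadjusted P under 0.05 by edgeR. DESeq2 and the fit without I.P. mouse 2 each called 1 other receptor and 1 signalling gene, and 0 in the lists of other ligands and of shedding genes. The likelihood ratio test called 1 other receptor, and the fit with no gene filter 1 other ligand and 1 other receptor. With all 3 groups in 1 fit, and with the block by mouse number, 1 other ligand was called. The median log2 fold changes of these lists, in the order first given, were -0.002, -0.077, 0.029 and 0.238.

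In S.C. against DMSO mice 0 of 6 other ligands, 1 of 15 other receptors, 1 of 27 signalling genes and 1 of 15 shedding, processing and mRNA control genes were called, all higher, and median log2 fold changes were 0.933, 0.423, 0.152 and 0.093. DESeq2 called 1, 1, 3 and 2 genes of these lists, and with 1 S.C. mouse left out the counts were 3 to 4, 3 to 4, 5 to 8 and 3 to 7. The receptor was Tnfrsf12a, described above. The signalling gene was Tnfaip3, which encodes A20, a ubiquitin-editing enzyme that restrains NF-κB signalling. It was at 65.6 and 35.5 CPM in the DMSO mice, 174, 49.8, 57.5 and 130 CPM in the I.P. mice and 120 and 568 CPM in the S.C. mice, and the S.C. log2 fold change was 2.75 (standard error 0.80, adjusted p 0.747 by edgeR), and 1.19 without S.C. mouse 2. The third was Zfp36, which encodes tristetraprolin, a protein that binds the Tnf mRNA and speeds its decay. It was at 154 and 131 CPM in DMSO mice, 463, 115, 122 and 136 CPM in I.P. mice and 555 and 587 CPM in S.C. mice, and the S.C. log2 fold change was 1.98 (standard error 0.30, adjusted p 0.652 by edgeR). Among the I.P. mice, mouse 1 was the highest for Zfp36, as it was for Tnf and Tnfsf9.

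Between the routes, 6 genes of these lists were called higher in S.C. mice and 0 lower, where 2.41% of all genes were called higher and 4.64% lower. They were Ltb, which encodes lymphotoxin beta, the receptor Tnfrsf18 (GITR), the signalling genes Traf4, Birc3 and Tnfaip3, and Zfp36. Ltb was at 1.15 and 0.345 CPM in the DMSO mice, 0.191 CPM or less in the I.P. mice and 10.8 and 1.89 CPM in the S.C. mice. Tnfrsf18 was at 0.95 and 0.0574 CPM in DMSO mice, at 0.0637, 0.182, 0.282 and 0.758 CPM in I.P. mice and at 3.63 and 3.13 CPM in S.C. mice. The lymphocyte markers were also highest in the S.C. mice, at 71.6 and 59.6 CPM in sum, and their part in these values was not tested. Birc3, which encodes an inhibitor of apoptosis that acts at TNF receptors, was at 27.0 and 112 CPM in the S.C. mice against 21.9 to 35.9 CPM in the I.P. mice. Its log2 fold change of 1.27 became -0.10 without S.C. mouse 2. The calls of Traf4, Birc3, Tnfaip3 and Zfp36 were each lost without I.P. mouse 2 and without I.P. mouse 3, and those of Tnfrsf18, Traf4, Birc3 and Tnfaip3 with the block by mouse number.

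**Figure D5:**
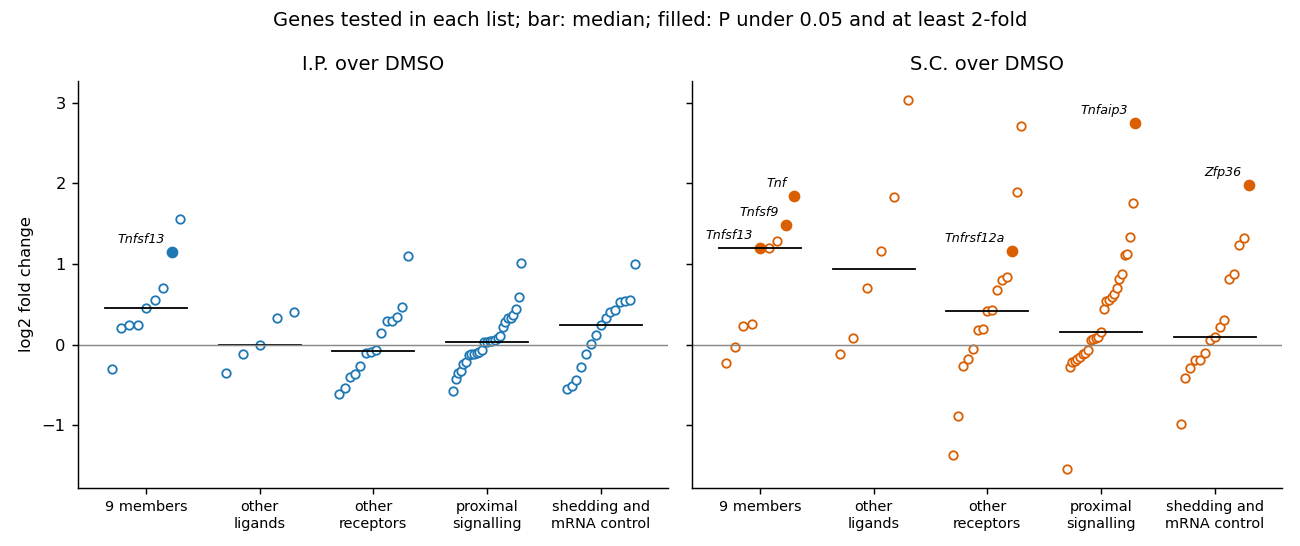
Log2 fold change (y axis) of each gene tested in the 9-gene list and in 4 further lists, for I.P. against DMSO (left) and S.C. against DMSO mice (right), with a bar at each list's median; filled points meet the criterion of an unadjusted P under 0.05 and 2-fold and are named. The median of the 9 genes was 0.461 (I.P.) and 1.197 (S.C.), against 0.018 over all genes tested in each.

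Of the 9328 genes averaging 5 CPM or more, the 6 outside the list whose log2 CPM followed Tnf most closely over the 8 mice were Pex16 (Pearson's r 0.978), Csrnp1 (0.976), Abtb1 (0.966), Cacfd1 (0.965), Arid5a (0.953) and Cds2 (0.952). Without I.P. mouse 1 their r was 0.971, 0.963, 0.948, 0.953, 0.925 and 0.926 over 7 mice. Csrnp1, an immediate early gene, was at 23.7 and 15.7 CPM in DMSO mice, 98.3, 17.6, 23.0 and 51.6 CPM in I.P. mice and 45.4 and 59.6 CPM in S.C. mice. All 6 genes, which were picked for their likeness to Tnf, had the same order as Tnf among the I.P. mice. Within the 9 genes, Tnf went most closely with Tnfsf13 (r 0.806) and Tnfsf9 (0.786), and Tnfrsf1b with Tnfrsf11a (0.761). Without I.P. mouse 1 Tnf went most closely with Tnfsf13b (0.765), then with Tnfsf13 (0.756) and Tnfsf9 (0.681), and Tnfrsf1b with Tnfrsf21 (0.863, from 0.363 with all mice). Tnfsf12 and Tnfrsf21 ran most strongly against each other (r -0.830, and -0.802 without I.P. mouse 1). These values describe 8 mice in 3 groups, so that differences between groups and between libraries both enter them, and are given without a test.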

How the data were processed

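RNA-seq counts of TAMs from 8 mice were used, grouped by the treatment in the sample labels. The authors deposited whole-number counts per gene symbol without normalization; the paper names bowtie2 and RSEM on mm10, while the submitters' processing notes list TopHat2 and edgeR, and strand use is not given in the sources used here. The 9 genes, the lists and the tests were chosen with earlier results of these data known.

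Fits were made on 2 groups at a time in R 4.3.3 with edgeR 4.0.16 (filterByExpr with a minimum count of 10 and a minimum total of 15, TMM, two-sided quasi-likelihood test), and P values were adjusted by Benjamini-Hochberg over all genes tested. Fits were tested on simulated data. Standard errors are the log2 fold change over the square root of F, and log2 CPM have a prior count of 2. As nothing says how the libraries were processed, P values measure the spread between these mice. The edgeR test draws the spread of each gene toward that of the other genes tested. Coordinates and exon lengths are from GENCODE vM21 (GRCm38, the assembly of mm10), and promoters from RefSeq (GRCm38.p6). Besides the 9 genes, the text names those called in each list, at most 3 per list, direction and comparison by smallest P, the 6 genes most like Tnf by Pearson's r, and, after their values were seen, partners of the 9 genes and single marker genes.

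Alternatives were no filter, 1 CPM in 2 samples, RLE, scaling by library size only, DESeq2 1.42.0, the likelihood ratio test of edgeR, a block by mouse number, all 3 groups in 1 fit, leaving out each mouse and, chosen after the data were seen, a crossed block. Mice of the same number had correlations of their deviations from group means of -0.187 to 0.169, and no label pairs the mice. The main fits therefore have no block, and block fits are given only as alternatives.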

Additional observations from a re-analysis of the deposited data

Results flagged for a closer look

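Of 9 genes examined in the I.P. group, the only group with at least 4 mice, 1 had a mouse far from the others. Tnfsf9 in I.P. mouse 1, at 137 CPM, stood above the other 3 I.P. mice at 24.4 to 28.8 CPM, and its gap to the nearest of them was 0.904 of the group's range on the log2 CPM scale, above the critical value of 0.829. Chance flags about 1 in 20 such groups.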

How the results depend on the processing

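Calls among the 9 genes were 1 (I.P. against DMSO), 3 (S.C. against DMSO) and 0 (S.C. against I.P.). The first became 2 with no gene filter, edgeR's likelihood ratio test or DESeq2, Tnf being the gene added in each. Leaving out 1 mouse gave 1 to 2, 1 to 7 and 0 to 3 calls, in fits that called 0.909% to 3.0%, 0.92% to 27.8% and 5.23% to 16.4% of all genes, with 2 without I.P. mouse 2, and between the routes 1 when I.P. mouse 1 was left out and 3 when S.C. mouse 2 was. With same-numbered mice as a block, the calls were 1, 2 and 0, Tnfsf13 by S.C. missing the criterion (1.20, unadjusted P 0.0515 by edgeR), and with crossed numbers the S.C. count was 3. The block fit by I.P. rests on mice 1 and 2, and same-numbered mice did not deviate together. The block turned Tnfsf13b by I.P. to -0.43 and Tnfrsf1a between routes to -0.16. With library size only, which moved the median of all genes by S.C. from 0.018 to -0.135 and the S.C. DEGs from 268 higher and 323 lower to 196 and 429, Tnfsf13 and Tnfrsf1a between routes were at -0.033 and -0.034.

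Leaving out 1 mouse changed the sign of log2 fold changes that were not called: by I.P. Tnfrsf1a (-0.21 to 0.79), Tnfsf13b (-0.30 to 1.12) and Tnfsf9 (-0.56 to 0.72), by S.C. Tnfrsf1a (-0.19 to 0.81), Tnfrsf21 (-1.49 to 0.67), Tnfsf12 (-0.10 to 1.84), Tnfrsf11a (-1.98 to 0.52) and Tnfrsf1b (-0.77 to 0.83), and between routes Tnf (-0.027 to 1.05), Tnfsf13 (-0.028 to 0.19), Tnfrsf1a (-0.37 to 0.38), Tnfsf12 (-0.78 to 1.18), Tnfrsf1b (-1.27 to 0.30), Tnfrsf11a (-2.17 to 0.30) and Tnfrsf21 (-1.14 to 0.997). Birc3 between routes, a called gene, ran from -0.10 to 1.95. The cause was not tested, and each of these fits also has fewer mice. Of 369 alternative values for the 9 genes, 330 kept both direction and side of the criterion, 22 changed sign, 12 met the criterion newly and 5 lost it.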
